A study of Mus musculus with 29 samples.

Results

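The genes described here act against oxidative stress or handle glutathione: the NRF2 and KEAP1 regulators, stress enzymes, glutathione synthesis, thioredoxin and peroxiredoxins, glutathione transferases, peroxidases and enzymes that supply NADPH. They are a named list of 49 genes, and a member was measured where a probe of its symbol was detected, at a detection p-value below 0.01, on 2 or more arrays. That left 61 of their 71 probes, out of 11794 probes kept on the array, and 41 of the 49 genes, out of 8271 genes tested. Gsr, Prdx5, Prdx6, G6pdx and Pgd had no probe under these symbols in the annotation used, and Ftl1, Gpx3 and Gstt1 each had a probe that was detected on 0 arrays. Just inside the rule were Gclc and the dimmer probes of Gpx4 and Txn1, each detected on 2 arrays, and just outside it was a probe of Prdx2 detected on 1.

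NRF2, encoded by Nfe2l2, is a transcription factor that KEAP1 marks for degradation in unstressed cells. Oxidants and electrophiles modify KEAP1, NRF2 accumulates, and with a small MAF partner it binds antioxidant response elements upstream of genes for glutathione synthesis, conjugation of electrophiles, quinone reduction and removal of peroxides. AP-1, of which c-FOS is a subunit, binds a DNA element related in sequence, and in epidermis the NRF2 system is known for protecting keratinocytes from ultraviolet light and reactive chemicals.

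Primary keratinocytes from the tail skin of C57BL/6 mice were cultured at 32 °C. All carried a doxycycline-inducible c-Fos transgene, named c-FostetON. They received doxycycline (Dox) at a labelled 1 µg/ml, which another label field gives per litre, or none, and RNA was taken at 6, 12, 24, 48 and 72 h. The untreated groups held 2, 2, 3, 3 and 4 arrays and the Dox groups 3, 3, 3, 2 and 4. Both treatments have 2 arrays of letter C at 72 h, which were averaged, so that 29 arrays gave 27 replicates in 10 groups. No group without the transgene was analysed here, so effects of the drug itself and of the induced c-Fos cannot be told apart. The labels do not say whether replicates came from separate animals, so each p-value covers only the variation among these cultures, which may be technical, and the number of arrays limits the precision.

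The median signal per array was 54.5 to 74.5 and 33.4 to 37.8% of probes were detected. Of 9 keratinocyte markers 8 were detected on at least 2 arrays, and Krt1 on 1. None of the 5 immune markers on the array was detected (0 of 5), and of the fibroblast markers Thy1 was detected on 11 arrays, Vim on 4, Col1a2 on 1 and Col1a1, Col3a1, Dcn, Lum, Pdgfra and Pdgfrb on 0. The endothelial marker Kdr was detected on 4 arrays, and of the melanocyte markers Pmel, Dct, Tyrp1 and Mlana were detected and Tyr and Mitf were not. The red cell marker Hba-a1 was detected on 2 arrays and Alas2 on 0. The probe of Fos gave lower signals on arrays labelled Dox, by -0.76, -0.83 and -0.78 on the log2 scale at 24, 48 and 72 h (limma adjusted p = 0.00535, 0.00536 and 0.00163). The sources used here do not place that probe relative to the transgene, so it does not check the labels, and every direction below rests on the label Dox. The untreated 6 h arrays stood apart: their median correlation with arrays of other times was 0.945, against 0.967 to 0.983 for all other arrays. A pair of Actb (beta-actin) probes differed by 3.96 to 4.59 on these arrays and by -4.03 to -3.44 on the Dox arrays of 6 h. In the authors' deposited values the arrays fall into 4 sets by distribution, with every 6 h array in the first, every 72 h array in the last, and the untreated 12 h and Dox 24 h groups split between 2 sets.

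With Dox, Mgst3 was higher at 24, 48 and 72 h, reaching 2.88-fold at 72 h. Osgin1 was lower, reaching 2.02-fold at 72 h, and Hmox1 was higher at 24 h and lower at 72 h. After 6 h, the other members to pass were Srxn1, higher at 48 h, and Gsta3, lower at 72 h. All differences are log2 values of Dox minus untreated from 1 limma fit, and a gene was called where its p-value, adjusted by Benjamini-Hochberg over all probes, was below 0.05. Each gene counts once, through its brightest probe. At 12 h no member passed (0 of 41, with 1 higher and 4 lower at an unadjusted p below 0.05), where 0.955% of all genes were called higher and 0.447% lower. At 24 h 2 members were higher and 1 lower, together 7.32% of the 41, against 1.44% of all genes higher and 1.48% lower. At 48 h the counts were 2 higher and 1 lower, against 1.38% and 1.17%. At 72 h they were 1 higher and 3 lower, together 9.76% of members, against 2.91% of all genes higher and 3.34% lower. The median difference of the members was -0.03, -0.01 and 0.02 at 24, 48 and 72 h, and that of all genes was -0.01 at each. With median scaling in place of quantile normalization the split at 24 h was 2 higher and 7 lower, around a median of all genes of -0.22. On the authors' deposited values it was 1 and 7 at 24 h and 1 and 0 at 48 h. With cyclic loess it was 3 and 0 at 24 h and 2 and 3 at 72 h. The share of all genes called under these alternatives was not counted, at these or other times.

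**Figure D1:**
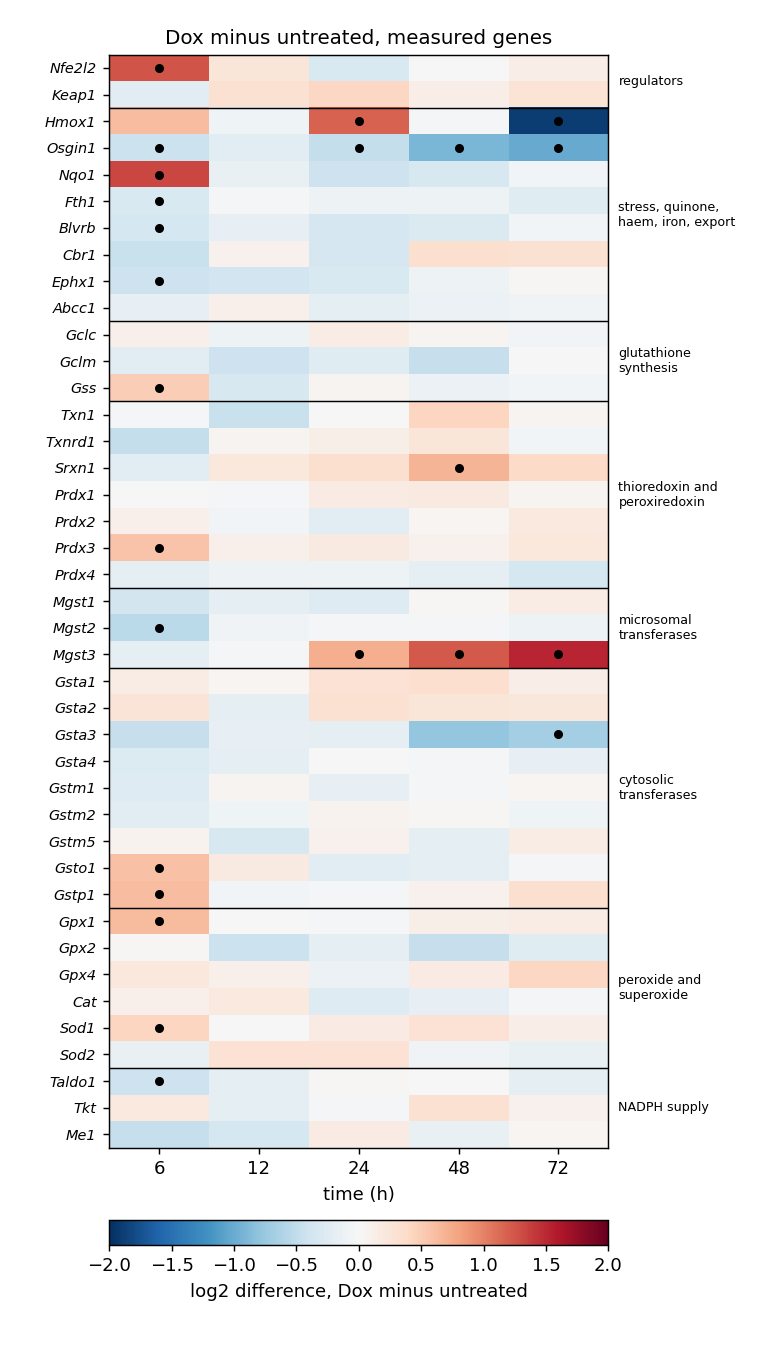
Log2 difference between Dox and untreated cultures for each of the 41 measured genes (rows, grouped by role) at 5 times (columns); red is higher with Dox, blue lower, and a black dot marks an adjusted p below 0.05. Mgst3 and Osgin1 carry dots from 24 to 72 h, Hmox1 changes colour between 24 and 72 h, and 14 of the dots lie in the 6 h column.

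Among the regulators, Nfe2l2 did not pass after 6 h, with differences of 0.24, -0.30, -0.01 and 0.13 at 12, 24, 48 and 72 h and adjusted p from 0.516 to 0.998. Keap1 has 4 probes, and they disagreed. The brightest differed by 0.42 at 24 h (SE 0.12, adjusted p = 0.0501). Another probe was called higher at 3 times, by 0.61 at 24 h (adjusted p = 0.00644), 0.59 at 48 h (adjusted p = 0.0196) and 0.44 at 72 h (adjusted p = 0.0370). On that probe the 24 h arrays read 5.95, 6.01 and 6.16 untreated and 6.44, 6.81 and 6.70 with Dox, with no overlap. The remaining Keap1 probes passed at no time.

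Hmox1 encodes heme oxygenase 1, which breaks heme down to biliverdin, iron and carbon monoxide. Its normalized log2 signal was 4.99, 4.75 and 4.91 on the untreated arrays at 24 h and 6.02, 5.94 and 6.22 on the Dox arrays. The Dox arrays were all higher, by 1.18 (SE 0.22, adjusted p = 0.00264), and the probe was detected on 2 of the 3 untreated arrays and on all 3 with Dox. At 72 h the untreated arrays read 6.38, 6.33, 5.60 and 5.79 and the Dox arrays 4.22, 4.22, 4.34 and 4.22. Every Dox array was below the detection threshold and every untreated array above it, so Hmox1 was at least 2.60-fold lower with Dox at 72 h (fitted difference -1.90, SE 0.22, adjusted p = 1.43e-06). The effect at 72 h was below that at 24 h (adjusted p = 2.43e-06). No size is given for this, since the Dox arrays of 72 h have only a bound.

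Hmox1 also moved with time in both treatments. At 12 h it read 6.18 and 6.40 untreated and 6.81, 5.80 and 5.98 with Dox, so the groups overlapped. At 48 h it was undetected on all 5 arrays (4.36, 4.40 and 4.37 untreated, 4.31 and 4.38 with Dox). At 6 h the Dox arrays were spread over 5.62, 4.47 and 4.89, and both untreated arrays, at 4.44 and 4.31, were below detection (adjusted p = 0.0686). Of the 24 h arrays, the 3 untreated and 1 with Dox lie in 1 set, where the Dox array read 6.02. Blocking on the set, the 24 h difference was 1.14 and did not pass (adjusted p = 0.167).

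Osgin1 encodes oxidative stress induced growth inhibitor 1, described as a stress-responsive inhibitor of proliferation. At 72 h it read 7.44, 7.52, 7.37 and 7.39 on untreated arrays and 6.49, 6.47, 6.31 and 6.39 with Dox. The groups were far apart, by -1.01 (95% interval -1.28 to -0.74, adjusted p = 6.87e-06). At 48 h it read 7.50, 7.03 and 7.24 untreated and 6.32 and 6.35 with Dox, again without overlap (-0.92, SE 0.15, adjusted p = 0.000275). At 24 h the arrays also did not overlap, at 6.88, 6.83 and 6.84 against 6.41, 6.37 and 6.35, and the difference of -0.48 lay at the threshold (adjusted p = 0.0495). That 24 h call ended when arrays were blocked by set (-0.44, adjusted p = 0.475) and without each of 18 single replicates in turn, and the 48 h call ended on the authors' deposited values (-0.38, adjusted p = 0.0750). At 12 h the groups overlapped, at 6.42 and 6.65 against 5.97, 6.35 and 6.61.

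From 24 to 72 h Osgin1 rose by 0.60 in untreated cultures (SE 0.13, adjusted p = 0.00202), while with Dox it differed by 0.06 (adjusted p = 0.823). The change of its Dox effect between 24 and 72 h did not pass (-0.54, SE 0.19, adjusted p = 0.174).

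The remaining enzymes of this group did not pass from 12 to 72 h. They were Nqo1, a quinone reductase, Blvrb, a biliverdin reductase, Cbr1, a carbonyl reductase, Ephx1, an epoxide hydrolase, Abcc1, an exporter of glutathione conjugates, and Fth1, the ferritin heavy chain. Ephx1 and Gpx2, a glutathione peroxidase of epithelia, had the smallest adjusted p of all members at 12 h. Ephx1 read 9.25 and 9.34 untreated and 8.89, 9.03 and 8.83 with Dox (-0.38, adjusted p = 0.0668), and Gpx2 7.39 and 7.56 against 7.06, 6.89 and 7.18 (-0.43, adjusted p = 0.0896). Neither pair of groups overlapped. Nqo1 read 9.76, 9.79 and 9.71 untreated and 9.51, 9.20 and 9.32 with Dox at 24 h (-0.41, adjusted p = 0.0685), also without overlap.

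Glutathione synthesis showed no call after 6 h. Gclm, the modifier subunit of the rate-limiting ligase, differed by -0.46 at 48 h (adjusted p = 0.161) and by 0.01 at 72 h (SE 0.14). Gss, glutathione synthetase, differed by -0.05 at 72 h on its brightest probe. Gclc, the catalytic subunit, was detected on only 2 of 29 arrays, too few for a level.

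Of the 7 measured members of the thioredoxin and peroxiredoxin group, 1 passed after 6 h. Srxn1, sulfiredoxin, returns overoxidized peroxiredoxins to their active form. At 48 h it read 6.95, 6.78 and 7.06 untreated and 7.52 and 7.68 with Dox, a rise of 0.67 (SE 0.13, adjusted p = 0.00297). The groups did not overlap there, nor at 24 h (difference 0.32, adjusted p = 0.158) or 72 h (0.39, adjusted p = 0.0539). The 48 h call ended without Dox replicate 2 (0.59, adjusted p = 0.0948) and on the authors' deposited values (0.33, adjusted p = 0.474). Its other 2 probes were called at other times, 1 at 24 h (0.52, adjusted p = 0.0213) and the other at 72 h (0.64, adjusted p = 0.0320). The probe called at 72 h was detected on only 6 arrays. At 72 h these were 3 of 4 with Dox and 1 of 4 untreated, and its groups overlapped. Txn1, thioredoxin, Txnrd1, its reductase, and the peroxiredoxins Prdx1, Prdx2, Prdx3 and Prdx4 did not pass from 12 to 72 h. For Txnrd1 this says little, as it was detected on only 15 arrays and on 1 of 4 in each 72 h group.

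Mgst3, a microsomal glutathione transferase with peroxidase activity, gave the smallest adjusted p among the members at 24, 48 and 72 h. At 12 h it read 8.53 and 8.56 untreated and 8.54, 8.47 and 8.51 with Dox, and the groups overlapped. At 24 h the untreated arrays read 8.11, 8.20 and 7.95 and the Dox arrays 8.77, 8.84 and 8.82, a difference of 0.72 (SE 0.11, adjusted p = 0.000147). From this time on every Dox array lay above every untreated array. At 48 h the values were 7.93, 8.23 and 7.77 against 9.28 and 9.14 (1.23, SE 0.12, adjusted p = 1.04e-07). At 72 h they were 7.78, 7.85, 7.79 and 7.90 against 9.39, 9.47, 9.25 and 9.15 (1.53, 95% interval 1.31 to 1.75, adjusted p = 1.01e-10).

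The second Mgst3 probe also separated with time, with differences of 0.45 at 24 h (adjusted p = 0.0608), 1.22 at 48 h and 1.51 at 72 h (adjusted p = 7.10e-09). The effect grew by 0.80 between 24 and 72 h (SE 0.15, adjusted p = 0.00380). From 24 to 72 h the brighter probe rose with Dox by 0.54 (adjusted p = 0.000761), and its untreated change of -0.26 did not pass (adjusted p = 0.0919). The second probe rose with Dox by 0.47 (adjusted p = 0.0156) and fell in untreated cultures by 0.58 (adjusted p = 0.00245), so the probes differ in how much of the growth lies on each side. Blocked by array set, the 24 h difference was 0.68 (adjusted p = 0.0470), and on the authors' deposited values 0.32 (adjusted p = 0.0524). The related Mgst1 and Mgst2 did not pass from 12 to 72 h, with differences from -0.27 to 0.14 for the brightest probe of Mgst1 and from -0.09 to -0.02 for Mgst2.

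**Figure D2:**
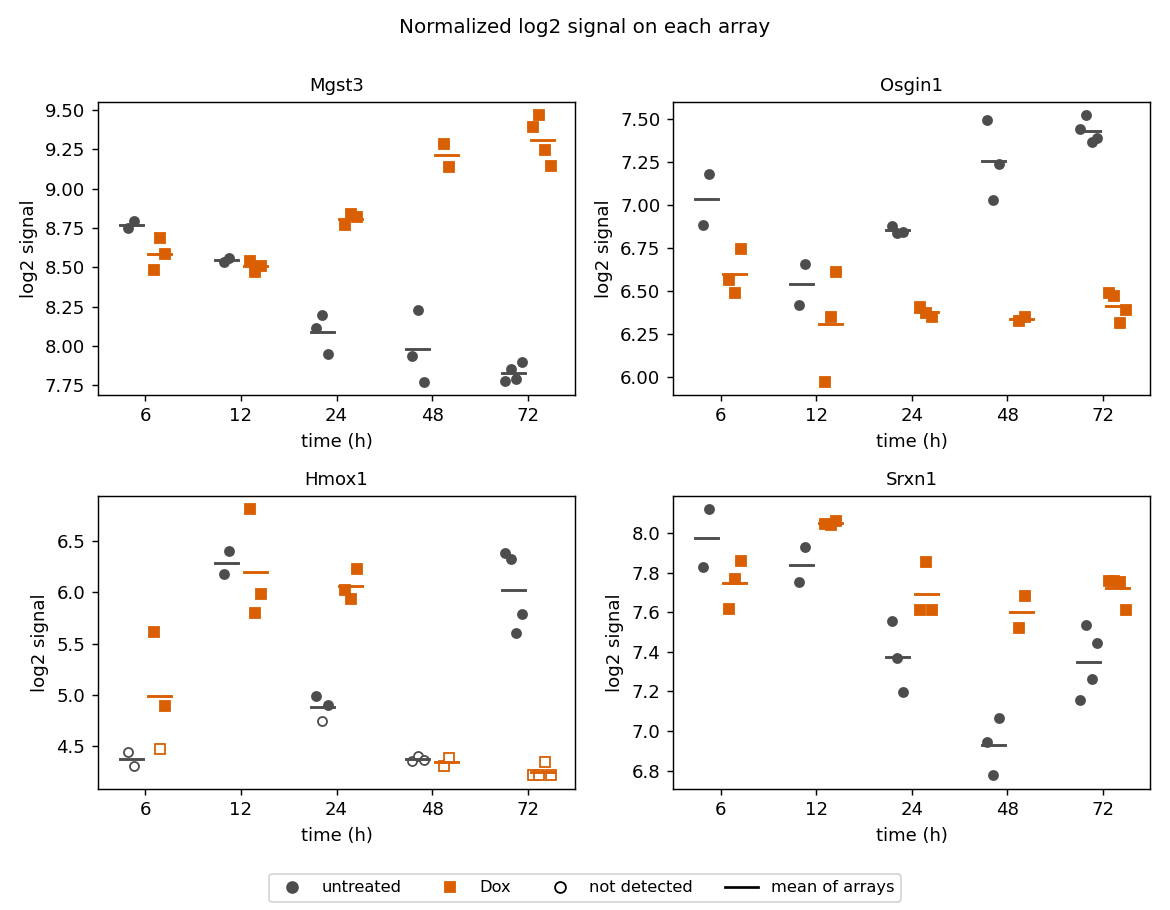
Normalized log2 signal of Mgst3, Osgin1, Hmox1 and Srxn1 (brightest probe) on each array by time in hours; circles are untreated, squares Dox, open symbols arrays on which the probe was not detected, and short lines the mean of the arrays. Mgst3 separates from 24 h on, with Dox arrays between 8.77 and 9.47, Osgin1 separates with the untreated arrays on top, and all Dox arrays of Hmox1 are open at 72 h.

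Among the 9 measured cytosolic glutathione transferases, Gsta3 passed at 72 h and no member of the group at 12, 24 or 48 h. Gsta3, an alpha-class enzyme, read 5.98, 6.22, 6.13 and 6.16 untreated and 5.11, 5.33, 5.82 and 5.91 with Dox at 72 h (-0.68, SE 0.20, adjusted p = 0.0455). The Dox arrays were all lower and more spread than the untreated ones. The call ended without Dox replicate 1 (-0.52, adjusted p = 0.258) or 2 (-0.63, adjusted p = 0.168), and with the Actb probe difference as a covariate (-0.58, adjusted p = 0.117). At 48 h Gsta3 differed by -0.78 (adjusted p = 0.0737), with arrays at 5.98, 5.83 and 6.06 against 5.09 and 5.26. Gsta1 and Gsta2 are near-identical in sequence, and Gstm1 and Gstm2 are related. Probes within each pair may share signal, as may those of Gstp1 and its copy. Gstm1 was detected on only 4 arrays.

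Peroxide and superoxide removal showed no call from 12 to 72 h among 6 measured members. These are the glutathione peroxidases Gpx1, Gpx2 and Gpx4, catalase (Cat) and the superoxide dismutases Sod1 and Sod2. The nearest were Gpx2 at 48 h (-0.46, adjusted p = 0.0570) and Gpx4, which reduces lipid peroxides, at 72 h (0.42, adjusted p = 0.0762). The 3 measured enzymes of NADPH supply, Taldo1 and Tkt of the pentose phosphate pathway and malic enzyme Me1, also did not pass, with differences from -0.20 to 0.08 at 72 h.

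At 72 h markers of keratinocytes also differed with Dox. Itga6 was higher by 0.89, Col17a1 by 0.73 and Trp63 by 0.56 (adjusted p = 0.000214, 0.000145 and 0.00290), and the other 5 measured markers did not pass. Among those 5 are the basal keratins Krt5 (-0.05, adjusted p = 0.923) and Krt14 (-0.01, adjusted p = 0.985). Itga6 was also higher at 24 h, by 0.58 (adjusted p = 0.0329). No marker of fibroblasts, melanocytes, endothelium or red cells passed at 72 h. The Actb probe difference was -2.41 to -1.71 on untreated and -3.71 to -3.10 on Dox arrays of 72 h, and with it as a covariate Mgst3 differed by 1.50, Osgin1 by -1.03 and Hmox1 by a fitted -1.86, all past the threshold. The part that the differences in Itga6, Col17a1 and Trp63 have in these results was not tested. In a culture, fewer cells of a type and less RNA per cell cannot be told apart.

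The promoters of the members called at 48 h are shown because c-FOS, as part of AP-1, binds DNA. Each is a RefSeq window (GRCm38.p6) of 300 bases that ends shortly after the gene's start, 5′ to 3′ on the gene's strand, with motif matches in capitals. The motifs were the AP-1 heptamer TGAGTCA and the core of the antioxidant response element, TGACNNNGC, each on both strands.
Mgst3 (chr1:167393792-167394091, minus strand): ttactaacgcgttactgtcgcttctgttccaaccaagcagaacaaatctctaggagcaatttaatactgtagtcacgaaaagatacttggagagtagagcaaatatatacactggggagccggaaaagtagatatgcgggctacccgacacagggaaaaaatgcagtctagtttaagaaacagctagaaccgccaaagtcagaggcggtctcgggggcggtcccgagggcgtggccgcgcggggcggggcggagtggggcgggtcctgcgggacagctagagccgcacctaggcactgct
Osgin1 (chr8:119436897-119437196, plus strand): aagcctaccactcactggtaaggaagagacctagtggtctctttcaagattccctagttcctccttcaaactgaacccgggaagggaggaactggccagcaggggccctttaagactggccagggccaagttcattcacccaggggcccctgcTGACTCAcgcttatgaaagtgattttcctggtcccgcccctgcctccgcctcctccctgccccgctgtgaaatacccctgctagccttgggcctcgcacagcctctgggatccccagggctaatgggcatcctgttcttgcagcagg
Srxn1 (chr2:152105274-152105573, plus strand): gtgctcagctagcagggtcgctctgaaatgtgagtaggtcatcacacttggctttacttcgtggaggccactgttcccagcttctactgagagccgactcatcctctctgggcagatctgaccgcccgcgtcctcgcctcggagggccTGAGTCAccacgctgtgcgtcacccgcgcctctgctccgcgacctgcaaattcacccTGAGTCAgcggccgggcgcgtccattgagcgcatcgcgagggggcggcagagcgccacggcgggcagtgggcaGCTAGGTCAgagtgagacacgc

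Positions are counted in bases from the gene's start. The Osgin1 promoter holds 1 AP-1 heptamer, at -97. That of Srxn1 holds 2, at -102 and -45, and 1 response element core at 28. The Mgst3 promoter holds neither run of letters in this window. Over 32851 promoters of all genes 5.2% held the AP-1 heptamer and 12.4% the response element core. Of 54 promoters matched to 43 of the listed genes 7 (13%) held the first and 12 (22.2%) the second. In 2 of these promoters, of Prdx1 and Me1, the motifs overlap, as they do in 0.454% of all promoters. Gsta3 holds 1 response element core, and Nqo1 neither motif. A match of letters is not a bound site.

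At 6 h 14 of the 41 members were called, 8 higher and 6 lower with Dox (together 34.1%). Of all genes 10.1% were called higher and 14.3% lower. Nqo1, the quinone reductase, was higher by 1.34 (SE 0.14, adjusted p = 4.76e-08), with untreated arrays at 8.26 and 8.58 and Dox arrays at 9.63, 9.90 and 9.74. Gpx1, an abundant glutathione peroxidase, read 12.90 and 12.76 against 13.44, 13.44 and 13.53 (0.64, SE 0.11, adjusted p = 0.000120). In both genes the untreated 6 h arrays were the lowest of all 29 arrays. At 12 h the treatments overlapped, with Nqo1 at 9.66 and 10.04 against 9.72, 9.70 and 9.70.

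Nfe2l2 was detected on 0 of the 2 untreated 6 h arrays, which read 4.58 and 4.39, and on all 3 Dox arrays, at 5.90, 5.58 and 5.73. It was at least 1.79-fold higher with Dox (adjusted p = 0.000201). The other higher members were Gstp1 (0.61, but -0.16 on its other probe), Gsto1 (0.59), mitochondrial Prdx3 (0.57), Gss (0.50) and Sod1 (0.44). Lower were Mgst2 (-0.55), Osgin1 (-0.43), Ephx1 (-0.42), Taldo1 (-0.41), Blvrb (-0.35) and Fth1, which differed by -0.31 on 1 probe and 0.15 on the other, and whose sign turned under cyclic loess. Median scaling gave 4 higher and 12 lower, around a median of all genes of -0.21 in place of -0.08, and the authors' deposited values 2 higher and 0 lower, Nqo1 and Gpx1.

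The number of calls changed with how the untreated 6 h arrays entered the fit. With the Actb probe difference as a covariate 2 members passed, Nqo1 (1.09, adjusted p = 0.0343) and Gstp1 (0.97, adjusted p = 0.0269), and Gpx1 and Nfe2l2 did not (0.71 and 0.72, adjusted p = 0.112 and 0.484). At 6 h this covariate runs with treatment (3.96 to 4.59 untreated, -4.03 to -3.44 with Dox), so the fit can hardly separate them. A call lost under it therefore does not tell the Actb difference from Dox. Without untreated replicate 2 there were 7 calls. At 6 h 1 of 8 measured keratinocyte markers was higher with Dox and 0 lower, and 1 of 2 fibroblast markers was lower. The 1 measured red cell marker, Hba-a1, was also lower, but it was detected on only 2 arrays. The part of these arrays and markers in the differences was not tested.

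**Figure D3:**
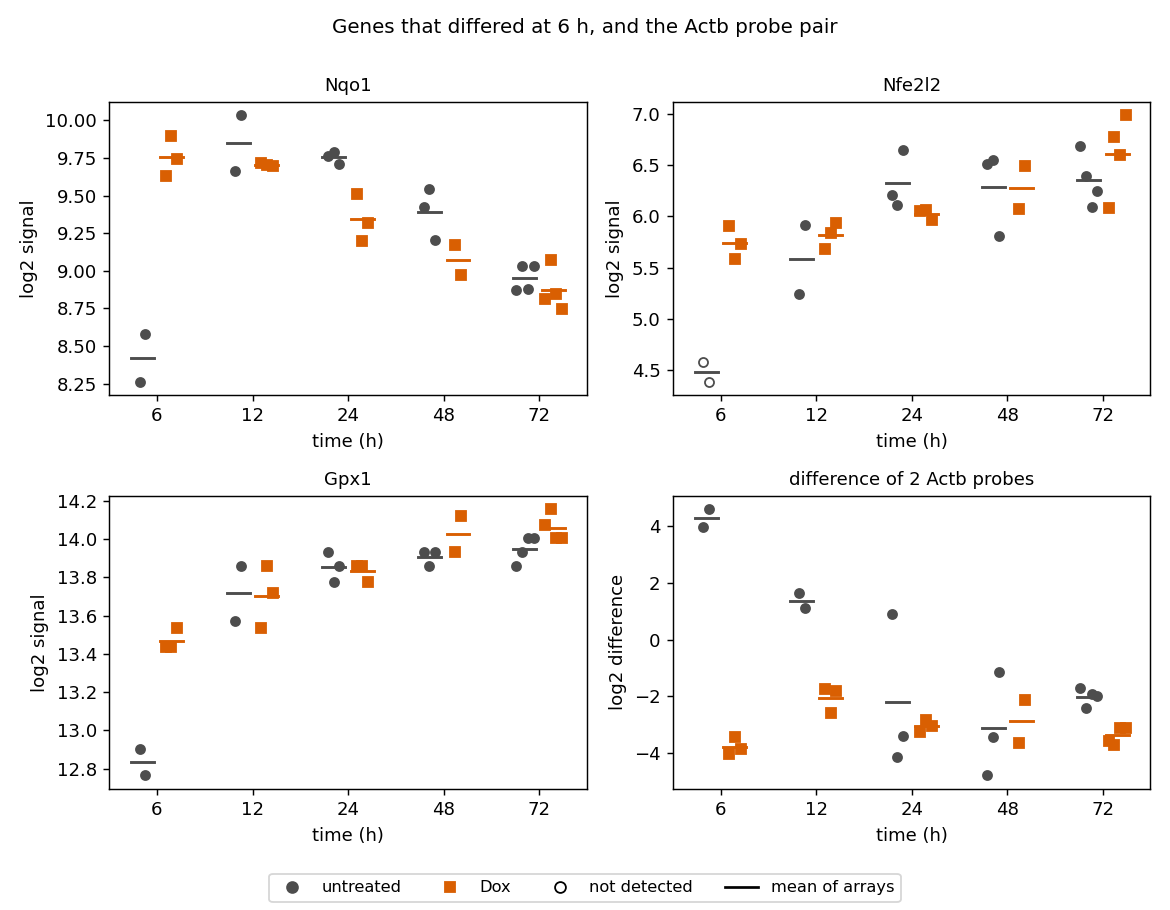
Log2 signal of Nqo1, Nfe2l2 and Gpx1 on each array, and the log2 difference of 2 Actb probes, by time in hours; circles are untreated, squares Dox, open symbols arrays without detection, and short lines the mean of the arrays. The 2 untreated arrays at 6 h are the lowest for the 3 genes and the highest for the Actb probe difference, at 3.96 and 4.59.

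The Dox effect differed between times for 9 members (limma F test over 5 times, adjusted p below 0.05), against 14.7% of all genes. They were Mgst3, Nqo1, Hmox1, Nfe2l2, Srxn1, Gpx1, Gstp1, Osgin1 and Gsto1. The other probes of Srxn1 did not pass this F test (adjusted p = 0.103 and 0.0579). Over 12 to 72 h, without 6 h, 2 of the 41 members passed, against 151 of all 8271 genes. They were Mgst3 (adjusted p = 4.35e-06) and Hmox1 (adjusted p = 8.76e-06). Without untreated 6 h replicate 2 the count was 4.

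More members were called between times than between treatments. Between 6 and 72 h 20 members were higher and 8 lower in untreated cultures (together 68.3%), against 19.6% of all genes higher and 24.9% lower. With Dox 17 were higher and 5 lower (together 53.7%), against 18.9% of all genes higher and 18.8% lower. The medians of the members were 0.40 untreated and 0.22 with Dox, and those of all genes -0.05 and 0.00. These comparisons share no arrays with each other. Each sets arrays of the first set against arrays of the last, so time and array set cannot be told apart. Cell markers moved in the same comparisons. In untreated cultures Krt5 was higher by 0.95 and Mlana by 0.58, while Col17a1 (-1.03), Trp63 (-0.72), Krt10 (-0.66), Thy1 (-0.85), Dct (-0.85) and Hba-a1 (-0.46) were lower. Hba-a1 was detected on only 2 arrays, so its difference is between signals mostly below detection. With Dox Mlana (0.69) and Vim (0.39) were higher and Krt10 (-0.76) and Dct (-0.65) lower. Vim was detected on only 4 of 29 arrays, Thy1 on 11 and Mlana on 12, so their signals too were mostly below detection. The part of the cell markers in the members' differences was not tested. On the authors' deposited values 34 members were higher and 0 lower in untreated cultures, and 35 and 0 with Dox, around medians of all genes of 0.25 and 0.29. The share of all genes called on those values was not counted.

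In both treatments 17 members were called in the same direction. For all genes this overlap was not counted, so neither this count nor those of the other patterns below can be set against it. Gstm2, Ephx1, Mgst2 and Gsto1, enzymes that handle electrophiles, each rose by more than 1 log2 unit in both treatments, as did Prdx4. Gstm2, a mu-class transferase, read 7.34 and 7.53 at 6 h and 9.21, 9.12, 9.12 and 8.89 at 72 h untreated, and 7.31, 7.14 and 7.19 against 8.91, 9.05, 9.15 and 9.06 with Dox. It rose by 1.67 and 1.81 (SE 0.13 and 0.12), and its other 2 probes rose as well. Ephx1 rose by 1.55 and 1.99, and Mgst2 by 1.42 and 1.87. Gsto1, an omega-class transferase, rose by 1.81 and 1.20. In all 4 genes no 72 h array overlapped a 6 h array of its treatment.

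Some peroxide-removing enzymes rose as well. Prdx4, of the endoplasmic reticulum, rose by 1.23 untreated and 1.08 with Dox, Prdx3 by 1.20 and 0.83, and Gpx1 by 1.10 and 0.61. Nfe2l2 was at least 2.87-fold higher untreated, from a level below detection, and rose by 0.81 with Dox. Members called lower in both treatments were Gclm (-0.92 and -0.70), Gpx2 (-0.65 and -0.92) and Gsta4 (-0.77 and -0.66). On the authors' deposited values none of these 3 was called lower in either treatment, and the sign turned for Gpx2 untreated and for Gclm and Gsta4 with Dox. Relative to the median of all genes in each scaling, these 3 stayed below it in every one.

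Called in opposite directions were 3 members. Mgst3 was lower at 72 h untreated (-0.95, SE 0.12) and higher with Dox (0.77, SE 0.11). Hmox1 was at least 2.36-fold higher untreated and at least 1.18-fold lower with Dox. The bound with Dox starts from a 6 h group detected on 2 of 3 arrays (SD 0.58), so its mean includes a signal below detection. Nqo1 was higher untreated (0.53) and lower with Dox (-0.86), from the 6 h levels given above. The treatments differed in these changes by 1.71 for Mgst3 and -1.39 for Nqo1 (adjusted p = 6.21e-08 and 6.82e-06). They also differed for Hmox1 (adjusted p = 7.84e-06), without a size, as its untreated 6 h and Dox 72 h arrays were all below detection. A further 8 members passed in untreated but not in Dox cultures, and Abcc1 and Cbr1 the other way round. Abcc1, counted among the 17 higher with Dox, was detected on 0 of 4 arrays at 72 h and 0 of 3 at 6 h, so its difference is between signals not above background, and on the authors' deposited values it lay on the other side of the median of all genes. Cbr1 was detected on 2 of the 3 Dox arrays at 6 h and on all 4 at 72 h. Among the 8, the change itself differed between treatments for Osgin1 (-0.58, adjusted p = 0.0457) and Srxn1 (0.61, adjusted p = 0.0185). The probes of Srxn1 disagreed, however. A second probe, also detected on 29 arrays, gave -0.41 (adjusted p = 0.147), and the third gave 0.71 (adjusted p = 0.0779).

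Set against 24 h in place of 6 h, a comparison added after the data were seen, 11 members were higher and 2 lower at 72 h in untreated cultures and 9 and 3 with Dox. The share of all genes called was not counted here, so these counts cannot be set against it. Gstm2 was higher by 1.35 and 1.19, Mgst2 by 1.25 and 1.19, Ephx1 by 0.74 and 1.07 and Gsto1 by 0.58 and 0.79, and Gpx2 was lower by -0.43 and -0.49. All of these passed in both treatments. Hmox1 was higher in untreated cultures, by 1.25 with 2 of 3 arrays detected at 24 h, and lower with Dox (adjusted p = 1.46e-06), where no 72 h array was above detection and no size is given.

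**Figure D4:**
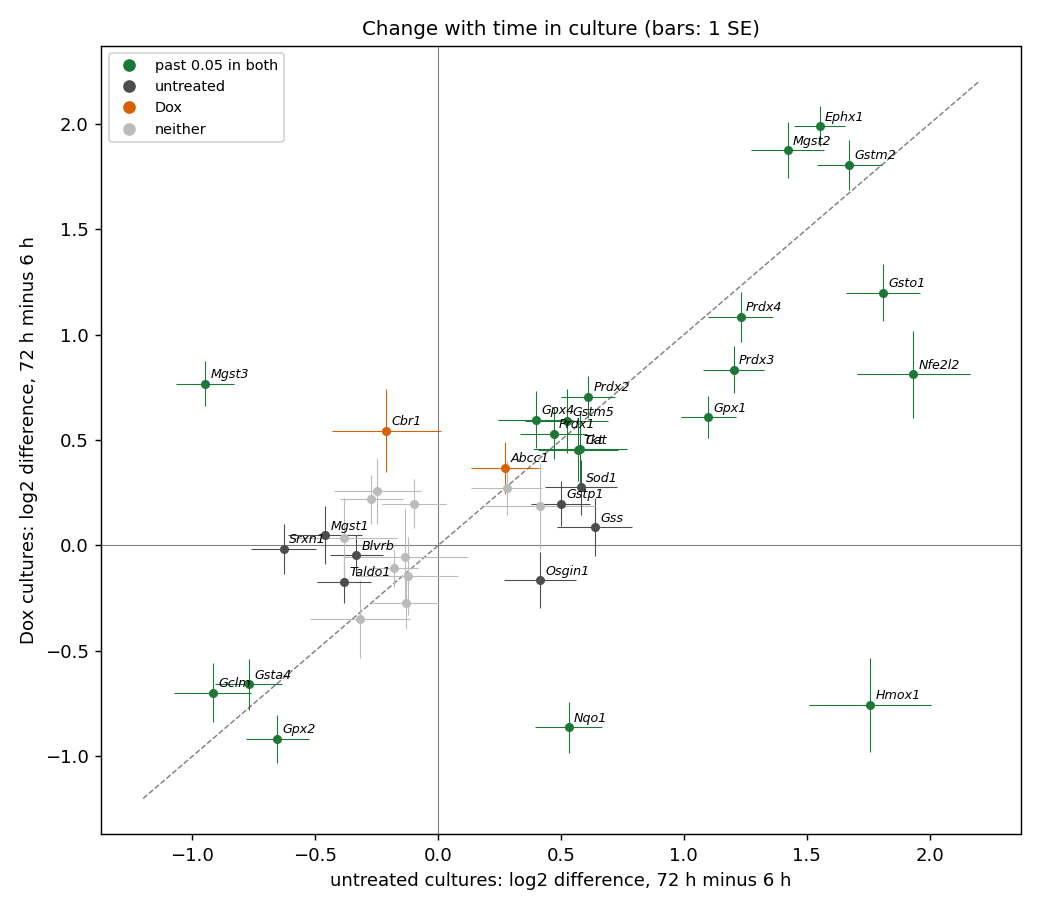
Log2 difference between 72 h and 6 h in untreated cultures (horizontal axis) and in Dox cultures (vertical axis) for the 41 measured genes; bars are 1 SE, the dashed line marks equal change, and colour gives where the adjusted p was below 0.05. Gstm2, Ephx1 and Mgst2 lie at the upper right, Mgst3 alone at the upper left among genes past the threshold in both, and Hmox1 and Nqo1 at the lower right.

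Of 91 other genes of these pathways, 57 were measured. With Dox 6 were higher and 7 lower at 6 h, 1 and 0 at 12 h, 0 and 0 at 24 h, 0 and 2 at 48 h and 4 and 6 at 72 h, against the shares of all genes given above. Lower at 72 h were Aldh3a1, an aldehyde dehydrogenase of epithelia (-0.99, adjusted p = 3.88e-07), Slc40a1, the iron exporter ferroportin (-1.08, adjusted p = 5.33e-06), and Txnip, an inhibitor of thioredoxin (-0.93, adjusted p = 0.000698). Aldh3a1 and Slc40a1 were also the 2 lower genes at 48 h, by -0.95 and -1.07. Ggct and Glrx, both listed for glutathione and cystine handling, and the transferase Gstk1 were lower at 72 h by -0.41, -0.31 and -0.45. Higher were Chac1, which degrades glutathione (0.66, adjusted p = 0.000307), the exporter Abcc3 (0.60, adjusted p = 0.00753) and xanthine dehydrogenase, Xdh (0.40, adjusted p = 0.0209). The other gene called higher, Ugt1a6a, a glucuronosyltransferase, differed by 0.87 (adjusted p = 0.0152); it is named after its values were seen, as 3 genes of its list had smaller adjusted p. None of the 7 measured further regulators of NRF2 passed at 72 h (0 of 7 by limma).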

How the data were processed

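Illumina bead arrays with 25697 probes measured the RNA. The intensity table was deposited before normalization, per the file headers, together with a detection p-value for each probe and array. A second table of log2 values, normalized by the authors in a way the sources here do not state, was deposited with the series and served as an alternative. Intensities were background-corrected from the detection p-values, with an offset of 16, and quantile normalized with limma 3.58.1 in R 4.3.3. A probe needed a detection p under 0.01 on 2 or more arrays. A single fit of 10 group means had 17 residual degrees of freedom and a prior of 8.32. Probe names come from GEO's platform annotation and promoter sequences from RefSeq, GRCm38.p6. Where every array of a group lacked detection, the fold is a bound, set against those arrays' lowest detected signal.

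The members, the further pathway genes, the tests and the Actb and array set alternatives were chosen with earlier results of these data known. All 49 members may be named; values on every array are given for members called at 2 or more times and for the 2 with the smallest adjusted p at each time, and up to 3 further genes per list by smallest adjusted p at 72 h. Letters in the sample descriptions were not used to pair the samples. Over 12 pairs the correlation of deviations from the group means ran from -0.05 to 0.15, and 1 was over 0.1. With so few arrays per group, these values cannot exclude that a letter marks a shared source. The letter C arrays of 72 h correlated at 0.99296 (untreated) and 0.99434 (Dox). Other pairs of 72 h arrays ran from 0.99165 to 0.99346 untreated and from 0.99055 to 0.99286 with Dox. The letter C pair was therefore the closest only with Dox. The fit was tested on simulated arrays with known changes. Background correction, normalization, detection filter, probe choice, array weights, blocks, the Actb covariate and leaving out each replicate were varied.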

Additional observations from a re-analysis of the deposited data

Results flagged for a closer look

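For 9 members the effect of Dox differed between times, by limma's F test on the differences of the effects at 12, 24, 48 and 72 h from that at 6 h. The adjusted p was 9.18e-08 for Mgst3, 1.34e-06 for Nqo1, 2.04e-06 for Hmox1, 0.00864 for Nfe2l2, 0.0137 for Srxn1, 0.0157 for Gpx1, 0.0177 for Gstp1, 0.0189 for Osgin1 and 0.0315 for Gsto1. In Nqo1, Nfe2l2, Gpx1, Gstp1 and Gsto1 the effect past the threshold was that at 6 h, where the untreated arrays had Actb probe differences of 3.96 and 4.59. Mgst3 and Hmox1 also passed over 12 to 72 h. For Srxn1 only the brightest probe passed the F test over all times (adjusted p = 0.103 and 0.0579 on its other probes). No group held 4 or more replicates, so single arrays were not compared with their group.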

How the results depend on the processing

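Depth limits these values: at most 37.8% of probes were detected on an array, Hmox1 was detected on 16 of 29 arrays and Gclc on 2, and groups hold 2 or 3 replicates. Of 74 called effects of single members of Dox or time in culture, 29 kept their direction and call in all of up to 13 alternatives and 27 fits without 1 replicate, among them Nqo1 at 6 h, Mgst3 at 48 and 72 h and Hmox1 and Osgin1 at 72 h. Counts of called members moved as follows, and the cause was not tested. Except for time dependence without 6 h, the share of all genes called was not counted in these alternatives. The counts therefore cannot be set against it. Without background correction 2 were called at 12 h, 7 at 24 h and 9 at 72 h. Median scaling gave 9 at 24 h. The authors' deposited values gave 2 members at 6 h and 3 at 12 h, then 8 for 24 h, 1 for 48 h, 35 with Dox over time and 4 for time dependence. Without a detection filter 1 was called at 12 h. Array weights gave 5 at 24 h and 8 at 72 h, and the probe with the smallest p 5 at 24 h. With the array set as a block 1 was called at 24 h, and the comparisons of 72 with 6 h could not be fitted. The Actb covariate gave 2 at 6 h, 17 in untreated cultures over time and 4 for time dependence. Alternatives added after the data were seen gave 2 for time dependence without 6 h, and 13 untreated and 12 with Dox for 72 against 24 h. Leaving out 1 replicate at a time gave 7 to 16 calls at 6 h, 0 to 0 for 12 h, 2 to 4 for both 24 and 48 h, 3 to 5 for 72 h, 22 to 28 and 18 to 23 over time, and 4 to 10 for time dependence. The sign turned for Fth1 at 6 h under cyclic loess (0.00363). Over time it turned on the authors' deposited values for Blvrb (0.403), Gpx2 (0.111), Mgst1 (0.139), Srxn1 (0.122) and Taldo1 (0.321) untreated and for Gclm (0.0816) and Gsta4 (0.0637) with Dox, and for untreated Tkt with the probe of smallest p (-0.524). With the letter as a replicate block 15, 0, 2, 3 and 4 members were called at the 5 times, 27 and 22 over time and 9 for time dependence. The Osgin1 call at 24 h ended in that limma fit (adjusted p = 0.0538). Whether a letter marks a shared source is not known.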
